A study of Mus musculus with 45 samples.

Results

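The tubular amino acid transporters examined here were 10 genes chosen by name, Slc3a1, Slc7a9, Slc7a13, Slc7a12, Slc3a2, Slc7a7, Slc7a8, Slc6a18, Slc6a19 and Slc1a1, out of 55401 genes in the count tables. All 10 passed the filter on low counts in both sexes. They were measured by translating ribosome affinity purification (TRAP) RNASeq, in which a ribosomal protein tagged with EGFP (L10a) is switched on by Cre recombinase, so that the mRNA bound to the tagged ribosomes comes from cells in which Cre had been active. The study asked which transcripts change after loss of polycystin-1, the product of Pkd1, and depend on intact cilia, before cysts appear.

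The 45 mice formed 6 groups of genotype and sex. Noncystic mice were Pkd1 fl/+ (8 males, 7 females), Pkd1KO mice were Pkd1 fl/fl (7 males, 8 females), and Pkd1KO+ciliaKO mice were Pkd1 fl/fl and Kif3a fl/fl (9 males, 6 females), Kif3a being a motor subunit that cilia need. Every mouse, controls included, was hemizygous for R26Rpl10a, Pax8rtTA and TetOCre, was given doxycycline by mouth between postnatal days 28 and 42, and was 7 weeks old (day 49) when its kidneys were taken. The Pax8 driver covers tubule segments from proximal tubule to collecting duct, so a library mixes several tubule cell types, and fewer cells of a type and less RNA per cell cannot be told apart. Libraries held 80874556 to 132958186 counts on genes.

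In the proximal tubule, filtered amino acids enter the cell through carriers of the luminal membrane and leave it through exchangers of the basolateral membrane. Many of these carriers are heterodimers of a heavy subunit, which brings the complex to the membrane, and a light subunit, which carries the amino acid. rBAT (Slc3a1) is the luminal heavy subunit and joins b0,+AT (Slc7a9) for cystine and dibasic amino acids, and AGT1 (Slc7a13) in the late proximal tubule. 4F2hc (Slc3a2) is the basolateral heavy subunit and joins y+LAT1 (Slc7a7) and LAT2 (Slc7a8). B0AT1 (Slc6a19) and the related Slc6a18 take up neutral amino acids at the brush border, and EAAC1 (Slc1a1) takes up glutamate and aspartate. Slc7a12 encodes a further light subunit of the Slc7 family.

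On GRCm38, Slc3a1 spans chr17:85028376-85064236 on the plus strand, Slc7a9 spans chr7:35448796-35466036 on the plus strand, and Slc3a2 spans chr19:8706882-8723369 on the minus strand. The sex-dependent members lie apart, Slc7a12 at chr3:14480697-14505830 and Slc7a13 at chr4:19818725-19842218, both on the plus strand. Slc6a18 (chr13:73661752-73678023) and Slc6a19 (chr13:73679745-73704865) are neighbours on the minus strand with a gap of 1.72 kb. Slc7a7 (chr14:54369442-54417780) and Slc7a8 (chr14:54722209-54781946) also share a strand, the minus strand, and lie 304 kb apart. Slc1a1 spans chr19:28835049-28913960 on the plus strand. Slc3a1, Slc7a7, Slc6a19 and Slc1a1 overlap annotated genes on the opposite strand (Prepl, Oxa1l, Slc6a19os, and Gm5822 with 4430402I18Rik). The strand setting of the counting is not given in the sources used here, so reads shared with these partners could not be told apart.

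The promoter of Slc3a1, the member with the highest level per length in 5 of the 6 groups, is shown as the 250 bases before a RefSeq transcription start (GRCm38.p6, chr17:85028097-85028346, plus strand, 5′ to 3′).
Slc3a1: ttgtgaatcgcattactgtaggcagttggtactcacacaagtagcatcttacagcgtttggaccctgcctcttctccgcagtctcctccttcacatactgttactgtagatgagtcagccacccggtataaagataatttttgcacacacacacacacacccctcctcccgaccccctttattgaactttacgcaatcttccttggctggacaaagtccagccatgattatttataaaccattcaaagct
Windows were matched for 7 of the 10 members (12 windows), with none for Slc7a12, Slc7a13 and Slc6a18. Each was searched on both strands for TGTTCT, the core of the steroid receptor half-site, and GTTAAT, a half-site of the proximal tubule factor HNF1, and neither of these motifs contains the other. TGTTCT was found in 3 windows, 1 of Slc6a19 that lies within the annotated gene (chr13:73692637-73692886) and 2 overlapping ones of Slc7a7. GTTAAT was found in 1 window of Slc7a7, which also lies within the annotated gene (chr14:54409473-54409722). For that window, and for the window of Slc3a1, the bases just after the start were not found in the gene's transcripts that were searched. Over all 32851 promoter windows of this length, 16.1% held TGTTCT and 6.43% held GTTAAT. No capitals appear in the Slc3a1 window because neither motif occurs in it.

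Before the comparisons, the targeted genes were checked. Whole-gene Pkd1, which is not limited to the deleted exons, had medians of 36.6 to 54.0 normalized CPM (counts per library total in CPM, with totals adjusted by TMM over all 45 libraries) in the 6 groups, with overlapping ranges. Kif3a lay between 13.8 and 29.2 normalized CPM in the noncystic and Pkd1KO mice and between 4.90 and 8.47 in the Pkd1KO+ciliaKO mice, apart from a pair of female libraries. The library labelled noncystic female 5 stood at 6.69 and the library labelled Pkd1KO+ciliaKO female 6 at 20.7, each against its label, and female results are therefore also given without both. The sources used here do not say whether reads from the floxed exons of Pkd1 or Kif3a were separated. Markers of the proximal tubule were abundant in every group. All 6 genes of the segment S1 and S2 list were detected and summed to 5328 to 11186 raw CPM. Marker levels here and below, those of sex-biased and Y chromosome genes included, are raw CPM, per library total without TMM. The 3 podocyte markers summed to 23.3 to 107 and the 3 endothelial markers to 32.9 to 245. The 3 fibroblast markers summed to 55.5 to 367 and the 3 macrophage markers to 32.2 to 151.

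Levels of different genes were compared per length, as TPM (transcript abundance per length and library, deposited per sex). Slc3a1 had the highest median in 5 groups, from 472 TPM in Pkd1KO+ciliaKO males to 635 TPM in noncystic females. In Pkd1KO females its median of 649 TPM lay beside the 656 TPM of Slc7a12, with overlapping ranges. In males Slc7a13 came next, at medians of 504, 516 and 343 TPM in noncystic, Pkd1KO and Pkd1KO+ciliaKO mice. In females that place was taken by Slc7a12, at 495 TPM in noncystic and 293 TPM in Pkd1KO+ciliaKO mice, and Slc7a13 was last, at 0.51 to 0.81 TPM. Slc6a18 was the next member in all 6 groups, at medians of 168 to 448 TPM, and did not overlap the member below it in 4 of them. Slc6a19, Slc7a8, Slc7a7, Slc7a9 and Slc3a2 followed at 47.4 to 165 TPM with ranges that mostly overlapped their neighbours in the order. Slc1a1 lay at 34.9 to 40.9 TPM, and Slc7a12 was last in males, at 2.88 to 14.0 TPM.

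**Figure D1:**
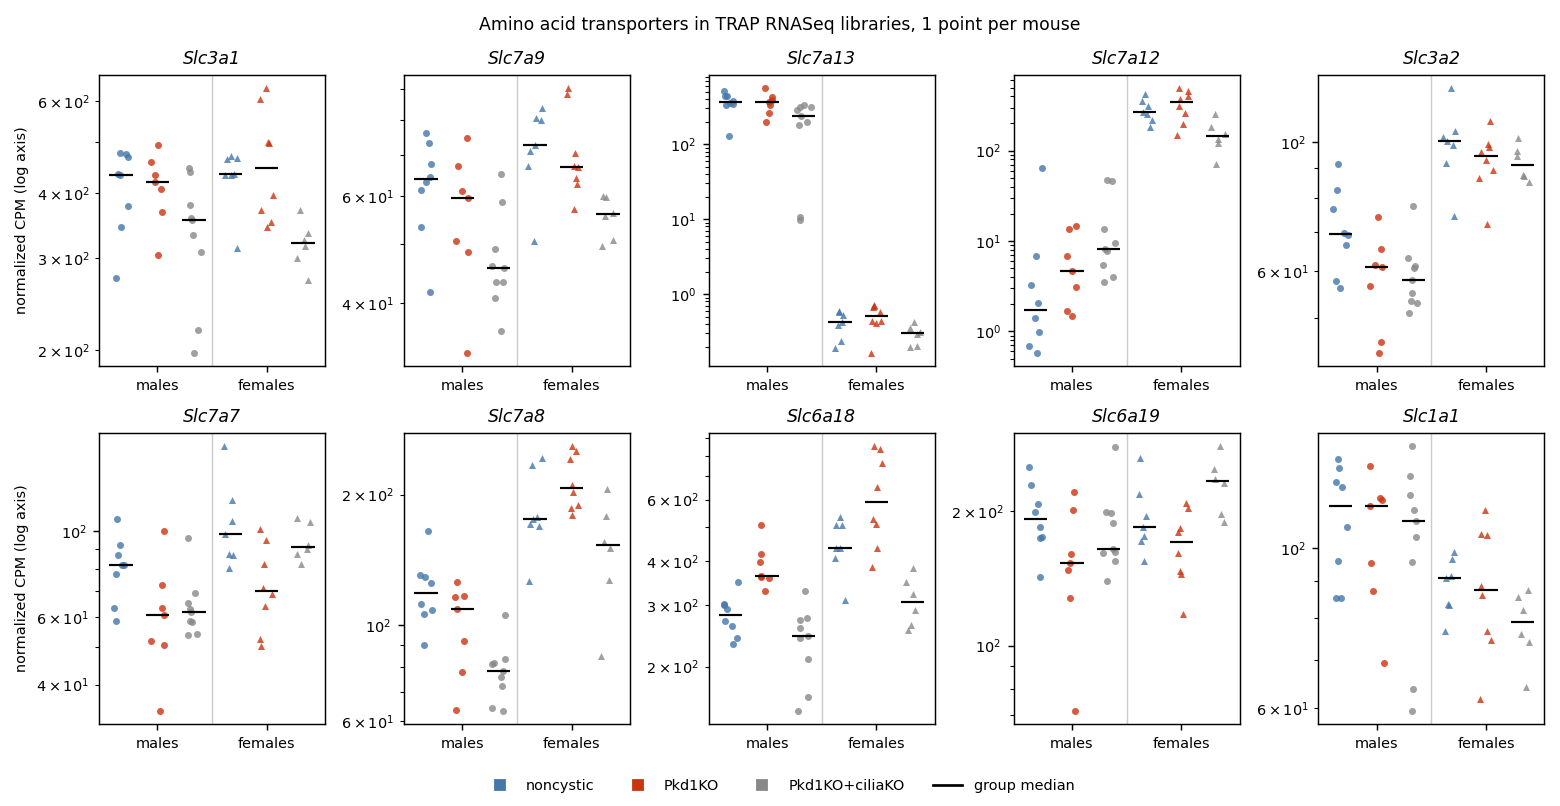
Normalized CPM (log axis) of each transporter, with 1 point per mouse, circles for males, triangles for females, colours for genotype and a black line at the group median. The panels of Slc7a13 and Slc7a12 separate males from females, while the other 8 genes differ by much less; Slc6a18 is highest in Pkd1KO mice of each sex.

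The largest differences were between the sexes, and they ran in opposite directions for Slc7a13 and Slc7a12. Slc7a13 was 894-fold higher in noncystic males than in noncystic females, and Slc7a12 was 28.6-fold higher in the females. Slc7a8, Slc3a2 and Slc6a18 were also higher in females, and Slc1a1 was higher in noncystic males. Sex differences were tested within each genotype with edgeR's quasi-likelihood test over 15828 protein-coding genes, and a gene was called where its p, adjusted by Benjamini-Hochberg, did not exceed 0.05. In noncystic mice 6 of the 10 members were called, 2 higher and 4 lower in males, against 27.5% of all genes tested (15.3% higher and 12.2% lower). In Pkd1KO mice 5 were called, 1 higher and 4 lower in males, against 27.2% (14% and 13.2%). In Pkd1KO+ciliaKO mice 5 were called, 1 higher and 4 lower in males, against 14.6% (8.23% and 6.32%). Without the 2 female libraries that went against their labels and 4 male libraries that had stood apart in an earlier look at these data (noncystic 3, Pkd1KO 4 and Pkd1KO+ciliaKO 6 and 8), the counts were 6, 5 and 6, the last with Slc1a1 added. Over all 15828 genes the calls then numbered 5227, 4692 and 5111, against 4353, 4313 and 2303 with all libraries.

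Slc7a13, the late proximal tubule partner of rBAT, lay between 129 and 510 normalized CPM in noncystic males (median 366) and between 0.19 and 0.59 in noncystic females (median 0.43). It lay between 200.2 and 566 (median 364) in Pkd1KO males and between 0.16 and 0.72 (median 0.51) in Pkd1KO females. In Pkd1KO+ciliaKO mice it lay between 9.87 and 338 (median 240.0) in males and between 0.20 and 0.43 (median 0.30) in females. No male overlapped a female in any genotype, and every female library still held 15 to 87 counts of the gene, above a floor of 3 counts. The male against female log2 fold changes were 9.80 ± 0.35 (SE) in noncystic mice, 9.46 ± 0.30 in Pkd1KO mice and 9.45 ± 0.92 in Pkd1KO+ciliaKO mice (edgeR adjusted p = 5.72e-12, 3.64e-12 and 1.76e-05).

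Slc7a12 showed the reverse order. It lay between 0.58 and 64.5 normalized CPM in noncystic males (median 1.72) and between 184 and 423 in noncystic females (median 268). It lay between 1.49 and 14.5 (median 4.71) in Pkd1KO males and between 149 and 496 (median 343) in Pkd1KO females. In Pkd1KO+ciliaKO mice it lay between 3.50 and 47.9 (median 8.07) in males and between 70.7 and 256 (median 144) in females. The sexes did not overlap in any genotype. The male against female log2 fold changes were -4.84 ± 0.93 (SE), -5.68 ± 0.54 and -3.24 ± 0.57 in noncystic, Pkd1KO and Pkd1KO+ciliaKO mice (edgeR adjusted p = 0.000925, 1.16e-06 and 0.00147). Without noncystic male 3, which held 64.5 normalized CPM, the first of these was -6.97. Without the 2 female and 4 male libraries the values were -6.95, -5.97 and -4.17 for Slc7a12 and 9.94, 9.57 and 9.79 for Slc7a13, all called.

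A set of 3 male libraries stood between the sexes for these genes, as the plot of Slc7a12 against Slc7a13 shows. Pkd1KO+ciliaKO males 6 and 8 had the lowest Slc7a13 of the 24 males (9.87 and 10.7 normalized CPM), and noncystic male 3 came next (129). The same mice held the highest Slc7a12 of all males, at 46.7, 47.9 and 64.5 normalized CPM, against 14.5 in the next male. Their summed level of 9 proximal tubule genes with a known male bias, all of them detected, was 3275, 3580 and 7742 raw CPM, against at least 12561 in the other males and 2611 to 13677 in the females. Their summed level of 6 genes with a known female bias was 468, 386 and 303, the highest of all males, against 549 to 1034 in the females. Y chromosome genes summed to 108 to 210 raw CPM in all males, these 3 included, and to at most 0.11 in females. The numbers in the mouse IDs of these 3 males were the lowest of all mice. What those numbers stand for is not given in the sources used here, and what set these libraries apart was not tested.

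**Figure D2:**
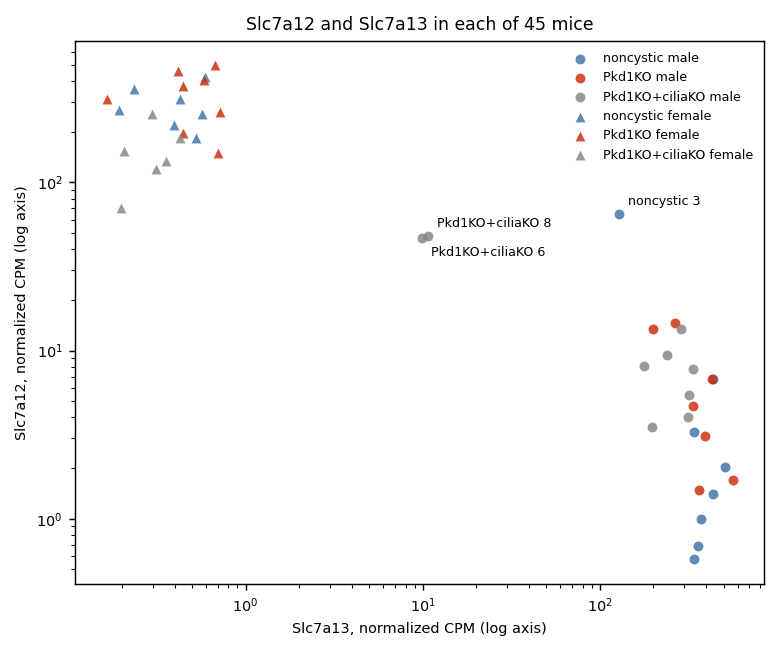
Slc7a12 against Slc7a13 in normalized CPM (both axes log), 1 point per mouse, with circles for males and triangles for females. Females lie at high Slc7a12 and low Slc7a13, most males at the opposite corner, and noncystic male 3 and Pkd1KO+ciliaKO males 6 and 8 between them.

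The light subunits counted per luminal heavy subunit had higher medians in males than in females of each genotype. The summed TPM of Slc7a9 and Slc7a13 per TPM of Slc3a1 had medians of 1.11, 1.08 and 0.87 in noncystic, Pkd1KO and Pkd1KO+ciliaKO males. Its ranges there were 0.62 to 1.31, 0.79 to 1.34 and 0.21 to 0.99. The same ratio had medians of 0.14, 0.13 and 0.15 in the females of these genotypes, with ranges of 0.10 to 0.23, 0.11 to 0.18 and 0.13 to 0.16. The sexes did not overlap within a genotype, but the lowest Pkd1KO+ciliaKO male lay below the highest noncystic female. Slc7a9 alone stood at 0.12 to 0.13 per Slc3a1 in males and 0.13 to 0.15 in females. These ratios are described without a test.

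Slc7a8 and its heavy subunit Slc3a2 were higher in females of all 3 genotypes. Slc7a8, which encodes the LAT2 exchanger of neutral amino acids, had medians of 119, 109 and 78.5 normalized CPM in noncystic, Pkd1KO and Pkd1KO+ciliaKO males and of 176, 207 and 153 in the females. In Pkd1KO mice the males reached 126 at most and the females 179 at least, whereas the sexes overlapped in the other genotypes. Its male against female log2 fold changes were -0.60 ± 0.13 (SE), -1.10 ± 0.14 and -0.94 ± 0.15 (edgeR adjusted p = 0.00303, 1.86e-05 and 0.000859).

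Slc3a2, the heavy subunit of LAT2, had medians of 69.5, 61.1 and 57.9 normalized CPM in noncystic, Pkd1KO and Pkd1KO+ciliaKO males and of 100.4, 94.4 and 91.2 in the females. Its sexes did not overlap in Pkd1KO+ciliaKO mice, with at most 77.7 in males and at least 85.4 in females. Its male against female log2 fold changes were -0.46 ± 0.11 (SE), -0.67 ± 0.11 and -0.63 ± 0.08 (edgeR adjusted p = 0.00491, 0.000220 and 0.000193). Slc7a7, which encodes y+LAT1, the basolateral exit route for dibasic amino acids, was called in Pkd1KO+ciliaKO mice, at a log2 fold change of -0.55 ± 0.11 (edgeR adjusted p = 0.00448). It stood at -0.38 and -0.24 in noncystic and Pkd1KO mice (edgeR adjusted p = 0.0771 and 0.388), and in noncystic mice it was called without noncystic male 6 or without noncystic female 4 (edgeR adjusted p = 0.0366 and 0.0490). Whether these sex differences depended on genotype is given with the interaction tests.

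Among the brush border carriers that work without a heavy subunit, Slc6a18 was higher in females of 2 genotypes. Its median was 281 normalized CPM in noncystic males and 436 in noncystic females, and 363 against 590.0 in Pkd1KO mice, with overlapping ranges in both. The log2 fold changes were -0.66 ± 0.11 (SE) and -0.67 ± 0.17 (edgeR adjusted p = 0.000260 and 0.00691), and in Pkd1KO+ciliaKO mice the value was -0.38 ± 0.15 (edgeR adjusted p = 0.103). Slc1a1, the glutamate and aspartate carrier, was called in noncystic mice alone, at 0.33 ± 0.10 (edgeR adjusted p = 0.0244), with a median of 114 normalized CPM in males and 91.0 in females. That call was lost without noncystic male 7 or without noncystic female 1 (edgeR adjusted p = 0.0541 and 0.0516). In Pkd1KO+ciliaKO mice Slc1a1 stood at 0.40 ± 0.16 (edgeR adjusted p = 0.107), and without Pkd1KO+ciliaKO males 6 and 8 and Pkd1KO+ciliaKO female 6 at 0.58 (edgeR adjusted p = 0.000433). It was also called there without Pkd1KO+ciliaKO male 6 or 8 alone (edgeR adjusted p = 0.0308 and 0.0195). Slc3a1, Slc7a9 and Slc6a19 did not pass the test in any genotype with all libraries, with log2 fold changes from -0.33 to 0.08. Slc7a9 was called in Pkd1KO mice without Pkd1KO male 1 (-0.42, edgeR adjusted p = 0.0365), and Slc6a19 in Pkd1KO+ciliaKO mice without Pkd1KO+ciliaKO male 3 (-0.43, edgeR adjusted p = 0.0143).

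Markers of tubule segments also differed between the sexes. The 5 markers of the late proximal tubule (S3), all detected, summed to 1163 to 3543 raw CPM over the males and 475 to 1593 over the females. Atp11a made up most of that sum, with medians of 2721 in noncystic males and 738 in noncystic females, and the other markers did not all run the same way: Slc22a13 had medians of 82.1 in noncystic males and 108 in noncystic females. The test called 2 of the 5 higher in males of each genotype and 1 lower in Pkd1KO males. The 4 intercalated cell markers were called lower in males for 2 genes in noncystic mice and for 3 in each of the other genotypes. Tubule injury markers were called lower in males for 4 of 5 genes in noncystic mice, 0 in Pkd1KO and 1 in Pkd1KO+ciliaKO mice, and mast cell markers for 2, 1 and 0 of 2. Thick ascending limb markers were called lower in males for 1, 2 and 1 of 3 genes, and principal cell markers for 1 of 3 in each genotype. Of the 3 S1 markers, 2 were called lower in Pkd1KO+ciliaKO males. The 6 S1 and S2 markers ran both ways. In noncystic, Pkd1KO and Pkd1KO+ciliaKO mice, 2, 2 and 1 of them were called higher in males and 0, 1 and 1 lower. The part of these markers in the sex differences of the transporters was not tested.

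**Figure D3:**
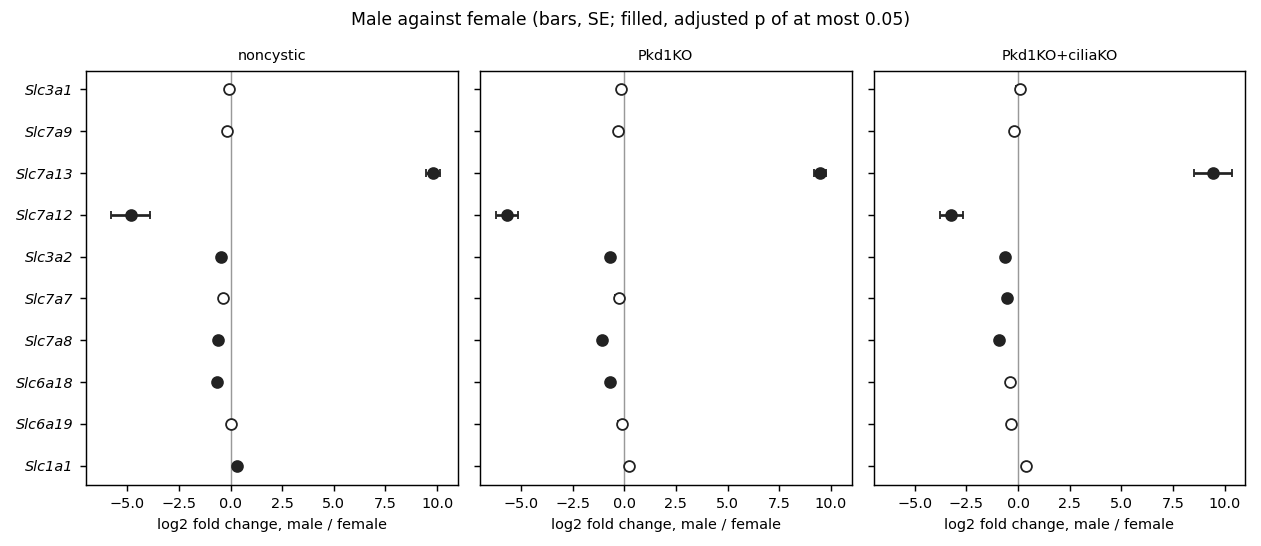
Log2 fold change of males against females for each transporter in the 3 genotypes, with SE bars and filled points for an adjusted p of at most 0.05. Slc7a13 lies between 9.45 and 9.80 and Slc7a12 between -5.68 and -3.24, while the other 8 genes stay between -1.10 and 0.40.

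Among genotypes, Slc6a18 was the member that rose in Pkd1KO mice against both other genotypes in males. It was 1.39-fold higher in Pkd1KO than in noncystic males and 1.64-fold higher than in Pkd1KO+ciliaKO males. In females it was 2.00-fold higher in Pkd1KO than in Pkd1KO+ciliaKO mice, and against noncystic females the fitted fold was 1.39 without passing the test. Genotypes were compared in pairs within each sex, with the same test over 15991 genes in males and 15968 in females. The comparisons that involve Pkd1KO mice share those libraries, so a member called in both does not give a pair of independent findings. In males 1 of 10 members was called in Pkd1KO against noncystic mice (6.3% of all genes were called), 1 in Pkd1KO against Pkd1KO+ciliaKO mice (3.77%) and 1 in Pkd1KO+ciliaKO against noncystic mice (8.89%). In females the counts were 0 of 10 (3.34%), 6 of 10 (11.7%) and 3 of 10 (2.54%) in the same order, and of the 6, 5 were higher (7.05% of all genes) and 1 lower (4.65%) in Pkd1KO mice. The median log2 fold change of the members was 0.43 in Pkd1KO against Pkd1KO+ciliaKO females and -0.34 in Pkd1KO+ciliaKO against noncystic females, with -0.01 and 0.01 over all genes tested, and -0.27 in Pkd1KO+ciliaKO against noncystic males, with 0.01 over all genes. Without the libraries labelled noncystic female 5 and Pkd1KO+ciliaKO female 6 the female counts were 0, 6 and 4, while 558, 1661 and 926 of all 15968 genes were called, against 405 in the last comparison with all libraries. For the count of 0, edgeR gave 2 members an unadjusted p under 0.05, and DESeq2 called 1.

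Slc6a18 in males lay between 232 and 348 normalized CPM in noncystic mice (median 281), between 329 and 506 in Pkd1KO mice (median 363) and between 149 and 328 in Pkd1KO+ciliaKO mice (median 245). The lowest Pkd1KO male was above the highest Pkd1KO+ciliaKO male, and overlapped the highest noncystic male. The log2 fold change was 0.47 ± 0.10 (SE) against noncystic males (edgeR adjusted p = 0.00909) and 0.71 ± 0.14 against Pkd1KO+ciliaKO males (edgeR adjusted p = 0.00807). Both calls held when any 1 mouse was left out (highest edgeR adjusted p 0.0216 and 0.0201) and without the 4 male libraries named above (edgeR adjusted p = 0.0162 and 0.00474). Pkd1KO+ciliaKO against noncystic males gave -0.24 ± 0.14 (edgeR adjusted p = 0.300).

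Slc6a18 in females lay between 311 and 535 normalized CPM in noncystic mice (median 436), between 386 and 854 in Pkd1KO mice (median 590.0) and between 255 and 383 in Pkd1KO+ciliaKO mice (median 306). The Pkd1KO and Pkd1KO+ciliaKO females did not overlap. The log2 fold change was 1.00 ± 0.18 (SE) in Pkd1KO against Pkd1KO+ciliaKO females (edgeR adjusted p = 0.00282), and 1.04 without the library labelled Pkd1KO+ciliaKO female 6 (edgeR adjusted p = 0.00463). In Pkd1KO+ciliaKO against noncystic females Slc6a18 fell by 0.53 ± 0.13 on the log2 scale (edgeR adjusted p = 0.0411), a call lost without any 1 of 9 of the 13 mice (edgeR adjusted p 0.0535 to 0.116). Against noncystic females the Pkd1KO value was 0.47 ± 0.17 (edgeR adjusted p = 0.148).

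Slc6a19, its neighbour 1.72 kb away and the main neutral amino acid carrier of the brush border, was lower in Pkd1KO than in Pkd1KO+ciliaKO females, where Slc6a18 was higher. In females it lay between 154 and 262 normalized CPM in noncystic mice (median 184), between 118 and 208 in Pkd1KO mice (median 170.4) and between 189 and 279 in Pkd1KO+ciliaKO mice (median 233). It fell by 0.45 ± 0.12 (SE) in Pkd1KO against Pkd1KO+ciliaKO females on the log2 scale (edgeR adjusted p = 0.0238), a call lost without Pkd1KO+ciliaKO female 4 (edgeR adjusted p = 0.0636). In males its median was 191 in noncystic, 153 in Pkd1KO and 165 in Pkd1KO+ciliaKO mice, with overlapping ranges and log2 fold changes of -0.34 and -0.24 for Pkd1KO against the other genotypes (edgeR adjusted p = 0.286 and 0.488).

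The TPM of Slc6a18 per TPM of Slc6a19 brings both neighbours together. In males its median was 1.77 in noncystic, 2.83 in Pkd1KO and 1.56 in Pkd1KO+ciliaKO mice, with ranges of 1.05 to 2.09, 1.69 to 5.69 and 0.86 to 2.31. In females its median was 2.63, 4.55 and 1.52 in that order, with ranges of 1.34 to 3.93, 2.16 to 5.39 and 1.17 to 2.00. The Pkd1KO females lay above every Pkd1KO+ciliaKO female, and the other pairs overlapped. The ratio is described without a test.

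**Figure D4:**
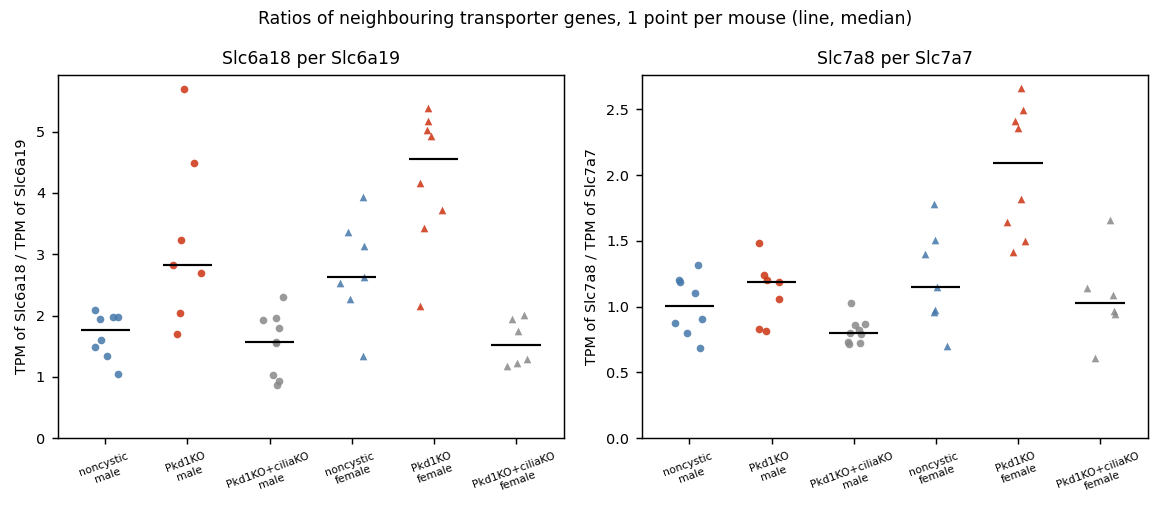
TPM of Slc6a18 per TPM of Slc6a19 (left) and of Slc7a8 per Slc7a7 (right) in each mouse, with a line at the group median. The first ratio has medians of 2.83 in Pkd1KO males and 4.55 in Pkd1KO females, the highest of their sex; the second has its highest median, 2.09, in Pkd1KO females.

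The luminal heterodimer genes Slc3a1 and Slc7a9 were lower in Pkd1KO+ciliaKO females than in both other female groups. Slc3a1 lay between 315 and 472 normalized CPM in noncystic females (median 434), between 344 and 636 in Pkd1KO females (median 447) and between 273 and 371 in Pkd1KO+ciliaKO females (median 321). The Pkd1KO+ciliaKO range overlapped both others at its upper end. The log2 fold change was 0.53 ± 0.14 (SE) in Pkd1KO against Pkd1KO+ciliaKO females (edgeR adjusted p = 0.0247) and -0.43 ± 0.09 in Pkd1KO+ciliaKO against noncystic females (edgeR adjusted p = 0.0329). The first call was lost without Pkd1KO+ciliaKO female 3 (edgeR adjusted p = 0.0638), and the second without any 1 of 7 of the 13 mice (edgeR adjusted p 0.0662 to 0.0958). Without the libraries labelled noncystic female 5 and Pkd1KO+ciliaKO female 6 they stood at 0.54 and -0.44 (edgeR adjusted p = 0.0373 and 0.0337).

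Slc7a9 had medians of 72.7, 67.1 and 56.0 normalized CPM in noncystic, Pkd1KO and Pkd1KO+ciliaKO females, with ranges of 50.7 to 83.7, 57.1 to 90.4 and 49.6 to 60.1. Its ranges overlapped in each pair. Its log2 fold change was 0.36 ± 0.10 (SE) in Pkd1KO against Pkd1KO+ciliaKO females (edgeR adjusted p = 0.0278), a call lost without Pkd1KO+ciliaKO female 2 or 3 (edgeR adjusted p = 0.0637 and 0.0696). In Pkd1KO+ciliaKO against noncystic females it was -0.39 ± 0.10 (edgeR adjusted p = 0.0489), and that call was lost without any 1 of 12 of the 13 mice (edgeR adjusted p 0.0587 to 0.129). Without both female libraries that went against their labels it was -0.46 (edgeR adjusted p = 0.00535).

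In males the same genes stood at -0.28 ± 0.16 for Slc3a1 and -0.40 ± 0.12 for Slc7a9 in Pkd1KO+ciliaKO against noncystic mice (log2 fold change ± SE, edgeR adjusted p = 0.285 and 0.0508). Slc7a9 in males had medians of 64.0, 59.6 and 45.7 normalized CPM in noncystic, Pkd1KO and Pkd1KO+ciliaKO mice with overlapping ranges. Without the 4 male libraries named above, Slc7a9 stood at -0.41 (edgeR adjusted p = 0.0154), and it was also called when any 1 of 4 mice was left out, noncystic male 3 or 4 or Pkd1KO+ciliaKO male 3 or 4 (edgeR adjusted p = 0.00915, 0.0447, 0.0178 and 0.0302).

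Slc7a12 also differed between female genotypes. It was 2.17-fold higher in Pkd1KO than in Pkd1KO+ciliaKO females, at a log2 fold change of 1.12 ± 0.29 (SE, edgeR adjusted p = 0.0211), with overlapping ranges of 149 to 496 and 70.7 to 256 normalized CPM. The call was lost without Pkd1KO+ciliaKO female 4 (edgeR adjusted p = 0.0517), and without the library labelled Pkd1KO+ciliaKO female 6 the value was 1.33 (edgeR adjusted p = 0.0101). Pkd1KO+ciliaKO against noncystic females gave -0.91 ± 0.25 (edgeR adjusted p = 0.0627), which was called without the libraries labelled noncystic female 5 and Pkd1KO+ciliaKO female 6, at -1.11 (edgeR adjusted p = 0.0217). It was also called without noncystic female 1 or without Pkd1KO+ciliaKO female 6 alone (edgeR adjusted p = 0.0478 and 0.0206). Slc7a13 in females, at 0.30 to 0.52 normalized CPM on average, was not called between genotypes (edgeR adjusted p = 0.0896 to 0.696), and without Pkd1KO female 6 it was called in Pkd1KO against Pkd1KO+ciliaKO mice at 0.91 (edgeR adjusted p = 0.0238).

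In males the genotype calls of Slc7a12 and Slc7a13 changed with the libraries that stood between the sexes. Pkd1KO+ciliaKO against noncystic males gave 0.69 ± 0.88 (SE) for Slc7a12 and -0.79 ± 0.52 for Slc7a13 on the log2 scale (edgeR adjusted p = 0.677 and 0.367). Without noncystic male 3, Slc7a12 stood at 2.82 (edgeR adjusted p = 0.0105). DESeq2 and limma voom with sample weights, given all libraries, called Slc7a12 at 2.56 and 2.29 (adjusted p = 0.00124 and 0.0102). Both can lessen the influence of a mouse that stands apart, DESeq2 by its default replacement of outlying counts and voom by its weights. Whether they did so for noncystic male 3 was not tested. Of the 4 male libraries named above, noncystic male 3 and Pkd1KO+ciliaKO males 6 and 8 belong to this comparison. Without them, Slc7a12 was higher at 1.69 and Slc7a13 lower at -0.59 (edgeR adjusted p = 0.0282 and 0.0115). These males held the lowest Slc7a13 and the highest Slc7a12 of all males. Leaving them out is therefore not independent of the values tested, and no conclusion is drawn from these calls. Pkd1KO against noncystic males gave -0.61 ± 0.95 for Slc7a12 with all libraries and 1.25 without the 4, and neither passed the test (edgeR adjusted p = 0.753 and 0.284).

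Slc7a8 was the member called in Pkd1KO+ciliaKO against noncystic males. It lay between 90.1 and 165 normalized CPM in noncystic males (median 119), between 63.9 and 126 in Pkd1KO males (median 109) and between 63.3 and 105 in Pkd1KO+ciliaKO males (median 78.5). It fell by 0.62 ± 0.11 (SE) on the log2 scale against noncystic males (edgeR adjusted p = 0.00215), and the highest edgeR adjusted p with any 1 mouse left out was 0.00535. In Pkd1KO against Pkd1KO+ciliaKO females it was higher at 0.51 ± 0.16 (edgeR adjusted p = 0.0446), with overlapping ranges of 179 to 259 and 84.8 to 207. That call was lost without any 1 of 9 of the 14 mice (edgeR adjusted p 0.0522 to 0.0989), and without the library labelled Pkd1KO+ciliaKO female 6 it stood at 0.63 (edgeR adjusted p = 0.0180). In Pkd1KO against Pkd1KO+ciliaKO males it was 0.35 ± 0.13 (edgeR adjusted p = 0.145), and it was called at 0.44 without Pkd1KO male 4 (edgeR adjusted p = 0.0425).

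Slc7a7, on the same chromosome, had its lowest female median in Pkd1KO mice, 70.1 normalized CPM (range 50.3 to 102), against 98.3 (80.4 to 167) in noncystic and 91.2 (82.5 to 108) in Pkd1KO+ciliaKO females. The ranges overlapped, and the log2 fold changes of -0.54 ± 0.17 (SE) and -0.37 ± 0.14 did not pass the test (edgeR adjusted p = 0.0910 and 0.105). The second was called without Pkd1KO female 8 (edgeR adjusted p = 0.0435). The TPM of Slc7a8 per TPM of Slc7a7 had a median of 2.09 in Pkd1KO females (1.41 to 2.66), against 1.15 (0.70 to 1.78) in noncystic and 1.03 (0.61 to 1.66) in Pkd1KO+ciliaKO females. In males that ratio had medians of 1.01, 1.19 and 0.80. In Pkd1KO against noncystic males, Slc7a7 stood at -0.39 ± 0.18 (edgeR adjusted p = 0.210), and it was called without Pkd1KO male 2 (edgeR adjusted p = 0.0466).

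Slc3a2 and Slc1a1 were not called between genotypes in either sex. Slc3a2, the heavy subunit shared by Slc7a7 and Slc7a8, had log2 fold changes of -0.29 ± 0.12 (SE) in Pkd1KO and -0.27 ± 0.10 in Pkd1KO+ciliaKO against noncystic males (edgeR adjusted p = 0.173 and 0.109). In Pkd1KO+ciliaKO against noncystic males, both Slc3a2 and Slc7a7 were called without noncystic male 3 (edgeR adjusted p = 0.0462 and 0.0362) and without Pkd1KO+ciliaKO male 3 (edgeR adjusted p = 0.0376 and 0.0186). The 6 genotype values of Slc1a1 lay between -0.18 and 0.18 on the log2 scale.

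Segment markers moved with some of these comparisons. Of the 5 S3 markers, 3 were called higher in Pkd1KO against Pkd1KO+ciliaKO females and 2 lower in Pkd1KO+ciliaKO against noncystic females, with sums of 761 to 1334 raw CPM in noncystic, 803 to 1593 in Pkd1KO and 475 to 823 in Pkd1KO+ciliaKO females. Of the 3 S1 markers, 2 were called lower in Pkd1KO+ciliaKO against noncystic males, with sums of 264 to 413 and 341 to 537. So were 2 of the 6 S1 and S2 markers and 1 S3 marker, while 1 distal convoluted tubule marker was higher. In Pkd1KO against noncystic mice, 1 S1 and S2 marker was called lower in each sex. Against Pkd1KO+ciliaKO mice, 1 S1 marker was higher in Pkd1KO mice of each sex. There, 1 intercalated cell and 1 distal convoluted tubule marker were lower in each sex. In males the macrophage markers summed to 82.4 to 151 in Pkd1KO, 59.9 to 81.6 in noncystic and 43.0 to 83.0 in Pkd1KO+ciliaKO mice, and 1 of 3 was called higher in Pkd1KO against each other genotype. In Pkd1KO against noncystic males, 2 of 5 tubule injury, 1 of 3 podocyte and 1 of 2 mast cell markers were called higher. There, 1 of 3 thick ascending limb markers was lower, and that count was the same against Pkd1KO+ciliaKO males. In Pkd1KO against noncystic females, 1 of 3 mast cell markers was called higher and 1 of 3 thick ascending limb markers lower. In Pkd1KO+ciliaKO against noncystic males, 1 podocyte, 1 injury and 1 mast cell marker were called higher and 1 macrophage marker lower. Of 9 proximal tubule genes with a known male bias, 2 were called higher in Pkd1KO against Pkd1KO+ciliaKO females. Of 6 with a known female bias, 1 was called higher and 1 lower there. In Pkd1KO against Pkd1KO+ciliaKO females, 1 macrophage, 1 injury and 1 mast cell marker were called higher and 1 thick ascending limb marker lower. The part of these markers in the transporter values was not tested.

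**Figure D5:**
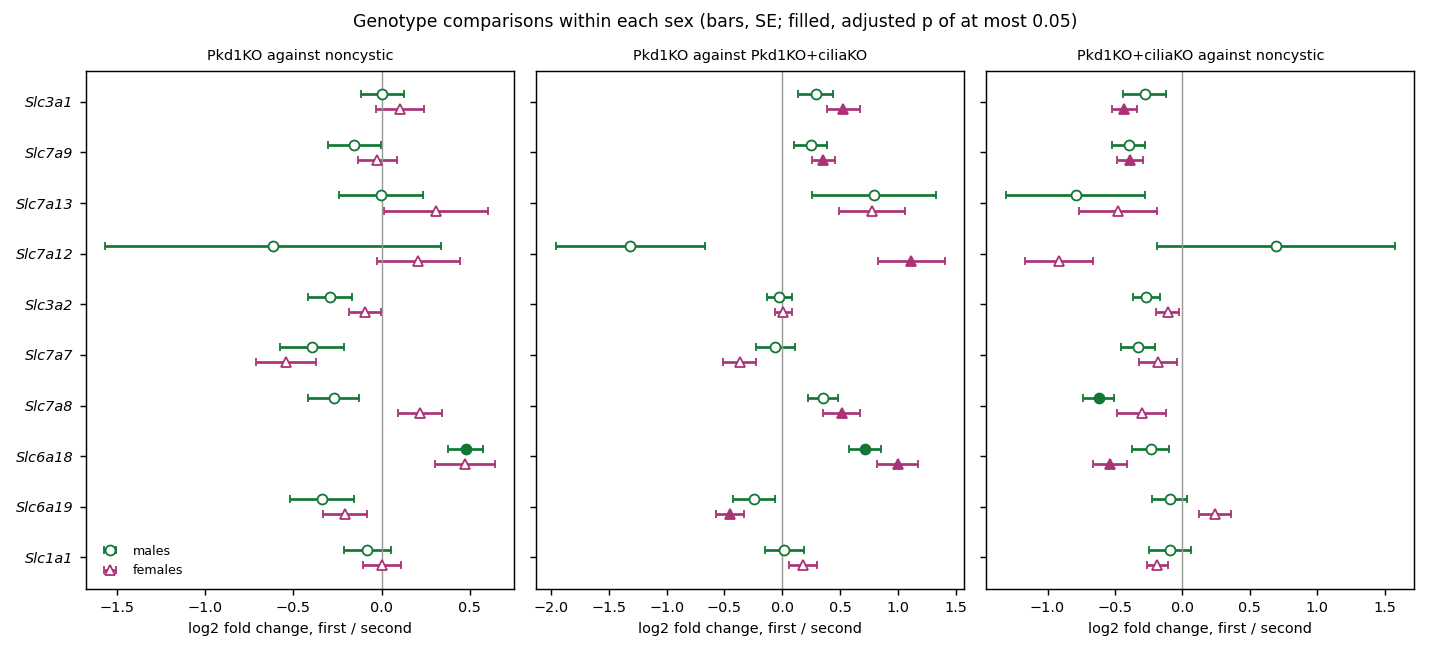
Log2 fold change of each transporter in the 3 genotype comparisons, males as circles and females as triangles, with SE bars and filled points for an adjusted p of at most 0.05. Slc6a18 is filled in both sexes in Pkd1KO against Pkd1KO+ciliaKO mice (0.71 and 1.00) and in males against noncystic mice (0.47).

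Whether a genotype difference itself differed between males and females was tested as an interaction in a fit of all 45 mice. None of the 10 members passed edgeR's test in any of the 3 comparisons, in which 0.0126%, 0.221% and 0.0316% of all genes did, and DESeq2 called 0 as well. At an unadjusted p under 0.05 there was 1 member for Pkd1KO against noncystic mice, Slc7a8, at a difference of -0.48 ± 0.21 (SE) on the log2 scale, males minus females (edgeR adjusted p = 0.523). There was 1 for Pkd1KO against Pkd1KO+ciliaKO mice, Slc7a12, at -2.44 ± 1.00 (edgeR adjusted p = 0.512), and 0 for the remaining comparison. In that one, Slc7a12 stood at 1.61 ± 0.98 (edgeR adjusted p = 0.990) and passed without noncystic male 3, at 3.75 (edgeR adjusted p = 0.0228). For Slc6a18 the difference between the sexes was -0.29 ± 0.22 in Pkd1KO against Pkd1KO+ciliaKO mice (edgeR adjusted p = 0.772).

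Genes with patterns like those of the 3 most variable members were sought by the root mean square difference of mean-centred log2 CPM over the 45 mice. For Slc7a13, whose log2 CPM had an SD of 4.78, the nearest genes were Cyp2j13 (difference 1.06), a cytochrome P450, Slco1a1 (1.34), an organic anion carrier, and Pzp (1.41), a protease inhibitor. Cyp2j13 had a mean of 186 normalized CPM in noncystic males and 0.94 in noncystic females. For Slc7a12 (SD 3.13) they were Abcc3 (0.98), an efflux pump for organic anions, the unnamed gene E330021D16Rik (1.10) and Slc17a2 (1.16). Abcc3 had a mean of 129, 146 and 67.5 normalized CPM in noncystic, Pkd1KO and Pkd1KO+ciliaKO females and of 3.74, 4.39 and 9.40 in the males. For Slc7a8 (SD 0.60) they were Rdh16 (0.35), Ank (0.36) and Agmo (0.36). Rdh16 had its highest mean in noncystic females, at 153 normalized CPM, and its lowest in Pkd1KO+ciliaKO males, at 90.1.

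Of 48 other amino acid and peptide transporters and partner proteins, 45 could be tested. Between the sexes, 8 were higher and 8 lower in noncystic males, 7 and 5 in Pkd1KO males, and 7 and 10 in Pkd1KO+ciliaKO males. These are 16, 12 and 17 calls among 45 genes, beside 27.5%, 27.2% and 14.6% of all genes. Collectrin (Cltrn), which Slc6a18 and Slc6a19 need at the brush border, had means of 485 to 644 normalized CPM and was called in none of the sex or genotype comparisons, with edgeR adjusted p from 0.0752 to 0.970. Slc36a1, a carrier of small neutral amino acids, was higher in males of all 3 genotypes, at log2 fold changes of 0.79, 0.82 and 0.71 (edgeR adjusted p = 4.81e-05, 5.54e-05 and 0.00626). The glycine carrier Slc6a9 was higher in noncystic and Pkd1KO males, at 1.42 and 0.99 (edgeR adjusted p = 4.22e-06 and 8.85e-05). Slc16a10, the basolateral carrier of aromatic amino acids, was lower in Pkd1KO and Pkd1KO+ciliaKO males, at -0.36 and -0.41 (edgeR adjusted p = 0.0196 and 0.00832). Others among the 5 with the smallest p in a genotype were Slc6a15 (0.85 and 0.97 in noncystic and Pkd1KO mice), Slc6a20b (0.64 in noncystic mice), Slc6a17 (-0.41 in Pkd1KO mice), and Slc36a2 and Slc1a3 (-1.31 and -0.54 in Pkd1KO+ciliaKO mice).

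Between genotypes, the same list gave 1 higher and 1 lower in Pkd1KO against noncystic males, 3 and 2 against Pkd1KO+ciliaKO males, and 7 and 3 in Pkd1KO+ciliaKO against noncystic males. In females the counts were 2 and 0, 7 and 5, and 3 and 2. Of all genes, 6.3%, 3.77% and 8.89% were called in these comparisons of males and 3.34%, 11.7% and 2.54% in those of females. The glutamine carrier Slc38a3 fell by 0.66 in Pkd1KO against noncystic males and by 1.18 against Pkd1KO+ciliaKO males on the log2 scale (edgeR adjusted p = 0.0314 and 0.000506). It lay between 13.9 and 29.6 normalized CPM in Pkd1KO males, 26.9 and 52.2 in noncystic males and 39.4 and 69.4 in Pkd1KO+ciliaKO males, so that the first and last of these groups did not overlap. Slc7a2, a carrier of cationic amino acids, was lower in Pkd1KO than in Pkd1KO+ciliaKO mice of both sexes, at -1.50 in males and -2.19 in females (edgeR adjusted p = 0.0259 and 0.00123), and 1.46 higher in Pkd1KO+ciliaKO than in noncystic females (edgeR adjusted p = 0.0209). In females it lay between 0.90 and 4.54 in Pkd1KO and between 4.96 and 8.47 in Pkd1KO+ciliaKO mice.

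Slc6a20a, a proline carrier with a close paralog in Slc6a20b, whose sharing of reads was not tested, was lower in Pkd1KO+ciliaKO than in noncystic mice, at -1.30 in males and -1.28 in females (edgeR adjusted p = 0.00105 and 0.0209), and higher in Pkd1KO than in Pkd1KO+ciliaKO mice, at 0.90 and 1.57 (edgeR adjusted p = 0.0197 and 0.000424). The peptide carrier Slc15a2 was 0.99 higher on the log2 scale in Pkd1KO than in Pkd1KO+ciliaKO females and fell by 0.62 in Pkd1KO+ciliaKO against noncystic females (edgeR adjusted p = 0.00203 and 0.0209). Slc6a13, a carrier of GABA and taurine, was higher in Pkd1KO than in Pkd1KO+ciliaKO mice, at 0.53 in males and 0.85 in females (edgeR adjusted p = 0.0407 and 0.00269). In Pkd1KO against noncystic females the called genes were Slc38a4 (1.08) and Slc6a9 (0.60), and in males Slc7a6 (0.69) beside Slc38a3. In Pkd1KO against Pkd1KO+ciliaKO females, Slc6a15 (0.74) was also among the 5 with the smallest p. In Pkd1KO+ciliaKO against noncystic males these were Slc6a6 (-0.43), Slc36a4 (0.40), Slc38a10 (-0.30) and Slc1a3 (0.52) beside Slc6a20a, and in females Slc38a1 (0.42) and Slc38a2 (0.60). No gene of this list passed an interaction test between sex and genotype with edgeR, and 4, 3 and 3 had an unadjusted p under 0.05. DESeq2 called 0 in these tests as well.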

How the data were processed

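Kidney TRAP RNASeq libraries of 45 mice were prepared and sequenced in a single batch. Per the study's methods and the submitters' processing notes, the authors used fastp 0.20.0 for trimming and STAR 2.7.9 for alignment (genome GRCm38.p6, annotation GENCODE vM25), and deposited raw counts per gene from featureCounts 2.0.0. The authors also deposited TPM per sex for protein-coding genes that reached 6 counts in 20% or more of a sex's mice, so TPM was not tested across sexes. The strand option is not given in the sources used here.

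Counts were tested with edgeR 4.0.16 (TMM, quasi-likelihood, R 4.3.3) on genes past the same filter, in fits of the groups compared, with Benjamini-Hochberg adjustment over all genes and calls at an adjusted p of at most 0.05. The interaction used all 45 mice. The SE of a log2 fold change was taken as its absolute value divided by the square root of the F statistic of its test. Values of log2 CPM used a prior count of 2. Library totals were 80874556 to 132958186 counts, and mice of a group differed by far more than counting error (chi-square per degree of freedom of at least 53.6 in every pair). Reads carried no molecular identifiers, so a floor of 3 counts covers counting error only. The steps were tested on simulated data. Alternatives were DESeq2 1.42.0, its size factors, limma 3.58.1 voom with sample weights, no filter, a replicate block, a fit of the 3 genotypes of a sex, and leaving out each mouse or the libraries that stood apart. Replicates were separate mice. The 10 members were named, with the other transporters counted and the 5 with the smallest p among those called named in each comparison, plus Cltrn and Slc16a10. A gene that this rule names is counted but not reported here. Members, lists and tests were chosen with earlier results of these data known. Gene positions came from the count tables and promoter windows from RefSeq (GRCm38.p6).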

Additional observations from a re-analysis of the deposited data

Results flagged for a closer look

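Each member was examined in each of the 6 groups, 60 sets in all, for a mouse whose distance to the nearest other mouse of its group was large against the group's range (Dixon's critical value at 95%). There were 7 such values, and chance gives about 3. Pkd1KO+ciliaKO male 3 accounted for 4 of them. It held the highest Slc3a2 of its group (77.7 normalized CPM, next 63.2), the highest Slc7a7 (96.1, next 69.2), the highest Slc7a8 (105.3, next 83.7) and the highest Slc6a19 (277, next 199). Both basolateral light subunits and their heavy subunit were thus high in the same mouse. It also held the highest summed S1 markers of its group (413 raw CPM, next 333) and the highest summed S1 and S2 markers (9623, next 9450), whose part in these values was not tested.

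Noncystic male 3 accounted for 2, with Slc7a12 at 64.5 normalized CPM (next 6.82) and Slc7a13 at 129 (next 339), and it is 1 of the 3 males described between the sexes. The last was Slc3a1 in noncystic female 1, at 315 normalized CPM (next 433). No difference between the sexes in a genotype effect passed its test with all libraries.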

How the results depend on the processing

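No member changed direction while called. Of the values of single members under alternatives other than leaving out a mouse, 656 kept their side of the threshold, 20 gained a call and 14 lost one. Of those with 1 mouse left out, 2634 kept it, 22 gained and 44 lost a call. In Pkd1KO against Pkd1KO+ciliaKO males, voom called 2 members. In Pkd1KO+ciliaKO against noncystic males, DESeq2 called 3, edgeR with DESeq2 size factors 2, voom 3, and edgeR without the 4 male libraries 4 (2240 of all 15991 genes). In Pkd1KO against noncystic females, DESeq2 and the fit of the 3 female genotypes each called 1 (Slc7a7), and in Pkd1KO+ciliaKO against noncystic females that fit called 0. The causes were not tested. For the other amino acid transporters, DESeq2 called 8 in place of 2 in Pkd1KO against noncystic males, 16 in place of 10 in Pkd1KO+ciliaKO against noncystic males and 11 in place of 5 in the same comparison of females.

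With 1 mouse left out, the number of members called in males ran from 1 to 2 in Pkd1KO against noncystic, 1 to 2 in Pkd1KO against Pkd1KO+ciliaKO and 1 to 5 in Pkd1KO+ciliaKO against noncystic mice. In females it ran from 0 to 0, 3 to 6 and 0 to 3. Between the sexes it ran from 5 to 7 in noncystic, 5 to 6 in Pkd1KO and 5 to 6 in Pkd1KO+ciliaKO mice, and in the interactions from 0 to 0, 0 to 0 and 0 to 1.

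Deviations of mice with the same replicate number had correlations from -0.288 to 0.458. What the replicate numbers stand for is not given in the sources used here, and these correlations cannot decide whether they mark a pairing. A replicate block left 0 members called in Pkd1KO against Pkd1KO+ciliaKO males (Slc6a18 0.66, edgeR adjusted p = 0.0705) and 2 in the same comparison of females (Slc6a18 and Slc3a1). In Pkd1KO+ciliaKO against noncystic females it called 1 member, Slc7a12 (edgeR adjusted p = 0.0330), which was not called without the block (edgeR adjusted p = 0.0627). The calls of Slc3a1, Slc7a9 and Slc6a18 there were lost with the block. Values of Slc7a13 in females rested on 15 to 87 counts per library.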
